A study of Mus musculus with 9 samples.

Results

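The comparison described here set the brains of 3 mice of the amyloid line 5xFAD against those of 3 wild-type mice, 6 of the 9 libraries of the study, and its members are all genes that passed a filter on low counts, 17575 of 56748 in the deposited table. All mice were 7 months old, and total RNA came from the whole brain after the cerebellum had been taken away. 5xFAD mice carry transgenes, human APP with familial Alzheimer mutations among them, expressed in neurons from the mouse Thy1 promoter, and wild-type mice carry none. The remaining 3 libraries, 5xFAD/Cd5l tg/wt, come from 5xFAD mice that also express mouse Cd5l from the human PDGF-B promoter, and here they enter the common fit, with a few of their values given at the end. Strain, sex and litter are not given in the labels used here, and each library is labelled as 1 mouse. The question of this comparison is what the amyloid line alone changes in brain RNA.

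Amyloid-beta is cut from APP by secretases and deposits in plaques, which draw microglia, the resident macrophages of the brain. Microglia in contact with plaques are known to switch on a programme that depends on the lipid-sensing receptor TREM2 and its adaptor TYROBP, whose cytoplasmic ITAM motif recruits the kinase SYK. The programme includes lectin receptors, integrins, lysosomal proteases and enzymes of lipid handling. Astrocytes around plaques are known to thicken their filament skeleton, and amyloid on vessel walls is known to affect pericytes and endothelium.

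Many of the rising genes named below are known genes of macrophages, and PU.1, the product of Spi1, is the ETS factor that marks many macrophage promoters. The letters GAGGAAGT, a form of its binding site, were searched on both strands in 300 bases around each transcription start (250 before it and 50 from it on) in RefSeq's promoter table on GRCm38.p6. They occur in 3.2% of all 32851 promoters. Promoters were matched by symbol for 134 of the 187 rising genes and for 12347 of all 17575 tested genes. At least 1 promoter held the letters in 17 of the 134 (12.7%) and in 413 of the 12347 (3.34%). Of 300 falling genes matched, 10 held them (3.33%). In the endothelial list below 3 of 19 matched genes held them (15.8%), and in the splicing list 1 of 37 (2.7%). In both of these lists genes fell and none rose, so a high share was not particular to lists of rising genes. The difference in shares was not tested. The letters of the lysosomal CLEAR element, TCACGTGA, were searched in the same way and occur in 0.974% of all promoters. Counted by gene, 2 of the 134 rising genes held them (1.49%) and 240 of the 12347 tested genes (1.94%). The windows below, 5′ to 3′ along the gene, show where the letters lie in 4 rising genes whose values follow, with the letters or their reverse complement in capitals. They are chr4:136893082-136893164 (minus strand) for the complement gene C1qc, chr3:95526684-95526811 (plus strand) for the protease gene Ctss, chr3:106790120-106790243 (minus strand) for the tetraspanin gene Cd53 and chr11:46454823-46454950 (plus strand) for the receptor gene Havcr2. Counted from the first transcribed base as 1, with no 0, the letters run from -195 to -188 in C1qc, from -2 to 6 in Ctss, from 7 to 14 in Cd53 and from -8 to -1 in Havcr2. A match of letters is a description and no sign that the factor was bound.
C1qc: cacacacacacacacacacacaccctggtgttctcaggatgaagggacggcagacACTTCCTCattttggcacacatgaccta
Ctss: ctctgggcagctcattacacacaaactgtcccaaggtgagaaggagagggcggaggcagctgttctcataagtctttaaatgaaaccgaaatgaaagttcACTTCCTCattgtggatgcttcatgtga
Cd53: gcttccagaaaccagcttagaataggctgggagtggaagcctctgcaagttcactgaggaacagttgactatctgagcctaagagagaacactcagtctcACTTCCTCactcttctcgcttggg
Havcr2: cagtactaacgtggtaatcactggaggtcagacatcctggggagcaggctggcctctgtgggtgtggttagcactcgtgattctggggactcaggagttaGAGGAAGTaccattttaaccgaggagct

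The 9 libraries held 14575416 to 17865150 counts. The first principal component of the 6 libraries took 40.07% of their variance and separated the genotypes, with wild-type libraries from -29.59 to -20.54 and 5xFAD libraries from 23.17 to 27.91. The second took 20.94% and set wild-type library 3 apart at -34.22, against -6.69 to 23.85 for the others. That library held 429.9 CPM (counts in every 1e6 after scaling) of 5 summed markers of cerebellar granule and Purkinje cells. Wild-type libraries 1 and 2 held 41.74 and 7.844 CPM and 5xFAD libraries 4.35 to 15.38 CPM, so that the cerebellar genes go against the label of a removed cerebellum there. Markers of hypothalamic and neuroendocrine cells summed to 2.158 and 1.975 CPM in 5xFAD/Cd5l tg/wt libraries 2 and 3 and to 42.26 to 75.84 CPM in the other 7. Red blood cell markers summed to 22.02 CPM in 5xFAD library 3 and to 0.8513 to 3.177 CPM in the other 5 libraries. Markers of neurons, oligodendrocytes and astrocytes were high in all 6 libraries, with sums between 1641 and 6878 CPM.

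**Figure D1:**
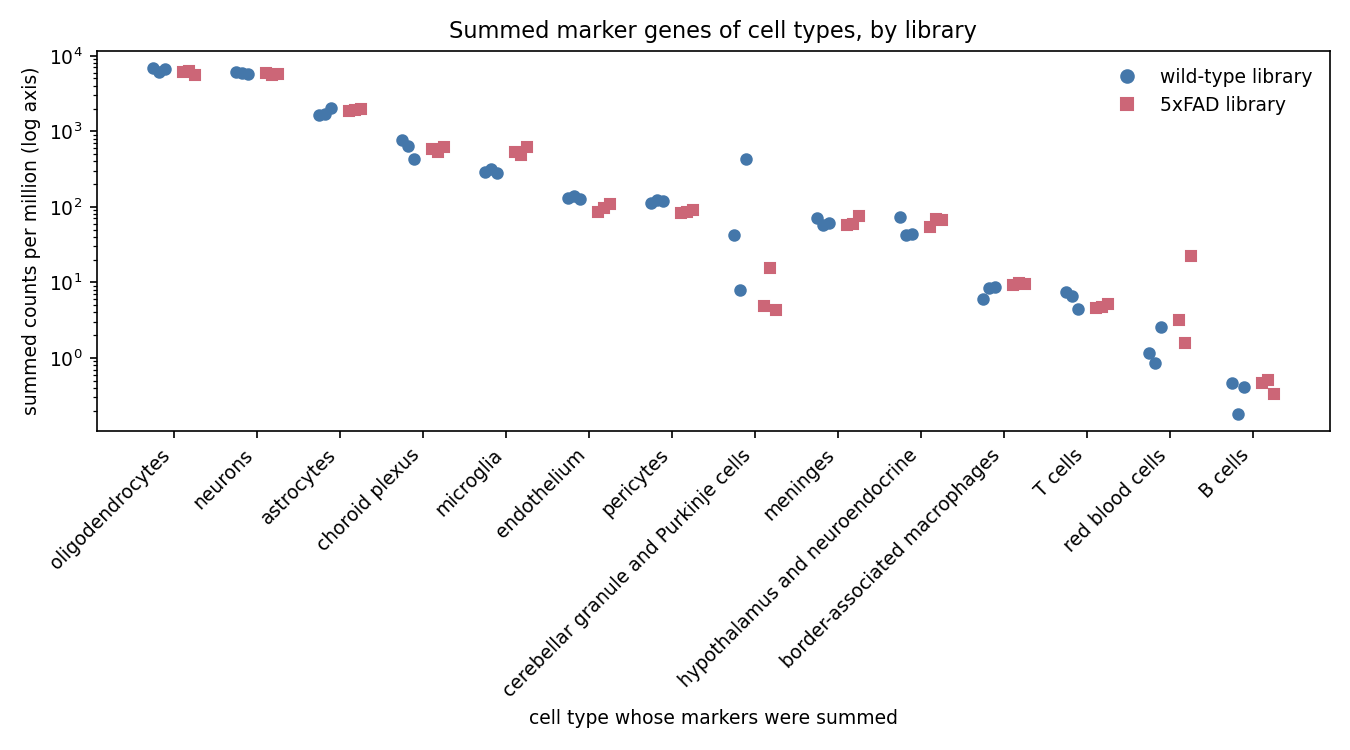
Summed CPM (log axis) of the marker genes of 14 cell types in each of the 3 wild-type (circles) and 3 5xFAD (squares) libraries; neutrophil and pituitary markers, at 0 in at least 1 library, are not drawn. The microglial squares lie above the circles, those of endothelium and pericytes lie below, and wild-type library 3 stands out in cerebellar markers.

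In edgeR's quasi-likelihood test at an adjusted p under 0.05, 615 genes passed, 3.5% of those tested, of which 187 rose (1.06%) and 428 fell (2.44%). Of the rising genes, 26 rose at least 4-fold and 78 between 2-fold and 4-fold, while 29 of the falling genes fell at least 4-fold and 105 between 2-fold and 4-fold. All 26 genes that rose at least 4-fold code for proteins, whereas of the 29 that fell as much 15 are TEC models (annotated models that await experimental proof), with a median level of 0.642 CPM, 5 are long non-coding RNAs and 8 code for proteins. Of the other falls, 155 lay between 1.5-fold and 2-fold and 139 below. Rising protein-coding genes had a median level of 11.15 CPM over the 6 libraries, against 29.23 CPM for falling ones and 24.9 CPM for those that did not pass. The rising genes together took 0.6997% of the counts in wild-type and 1.172% in 5xFAD libraries, and the falling genes 2.291% and 1.401%. Falling protein-coding genes had longer models, with a median of 6949 bases, than rising ones (3437 bases) or those that did not pass (4500.5 bases). By annotation, the rising genes were 181 protein-coding genes, 5 processed pseudogenes and 1 long non-coding RNA, and the falling genes included 319 protein-coding genes, 64 long non-coding RNAs and 37 TEC models, 11.7% of the 315 tested in that class. Of the rising genes, 24 were under the filter's level of 0.654 CPM in at least 1 wild-type library, and 42 of the falling genes were so in at least 1 5xFAD library. They passed the filter with the help of the higher group or of the third genotype. Those of the gene lists below are Clec7a, Lilrb4a, Gpr84, Itgax, Ctse, Cst7, Ch25h and Ccl3 among the rising and Cbln3 among the falling genes. Of these, Ctse and Lilrb4a were under that level in at least 1 5xFAD library too. The place of all these genes in a list's count is a description and supports nothing. The count of 615 became 387 with wild-type library 1 left out, 291 with wild-type library 2 left out, 206 with 5xFAD library 1 left out, 241 with 5xFAD library 2 left out and 392 with 5xFAD library 3 left out. Without the 3 libraries that stood apart in regional markers it was 1158 (378 rose and 780 fell), an alternative chosen after seeing the data.

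**Figure D2:**
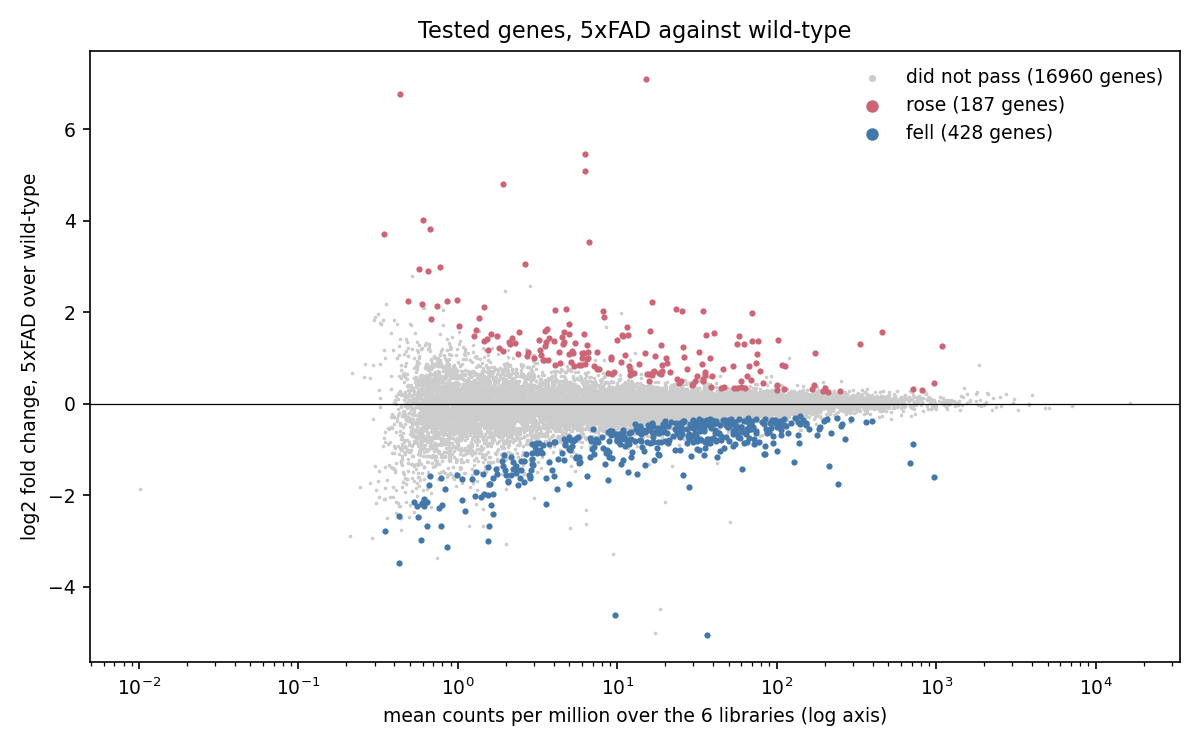
Log2 fold change of 5xFAD over wild-type against the mean level in CPM (log axis) for each of the 17575 tested genes, 1 point a gene. The 187 rising genes reach higher fold changes than the 428 falling genes, whose points crowd between -2 and 0.

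Markers of microglia moved as a group. All 7 markers rose, and their sum was 284.1 to 317 CPM in the wild-type and 478.1 to 617.8 CPM in the 5xFAD libraries (exact permutation test, two-sided, p = 0.1, the smallest that 3 against 3 can give, 0.3 adjusted over 24 such tests). In whole tissue, more microglia and more RNA per microglial cell cannot be told apart, and this holds for every microglial gene below. The part of this sum in the rises of single genes was not tested. Border-associated macrophages, the other macrophages of the brain, had 5.988 to 8.781 CPM of their 6 markers in wild-type and 9.133 to 9.709 CPM in 5xFAD. The exact permutation test gave the same p of 0.1 for this sum (0.3 adjusted). None of the 5 tested markers passed in edgeR's test. T cell markers, nearly all of whose counts were of Trbc2, summed to at most 7.5 CPM in any of the 6 libraries. B cell and neutrophil markers summed to under 1 CPM, and Ly6g and Retnlg had no count in the 6 libraries.

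Among the receptors and adaptors that signal through ITAM motifs, 19 of the 20 listed genes were tested and 8 rose, against 1.06% of all tested genes, with a median log2 fold change of 0.81 over the list and -0.01 over all genes. All 19 fold changes were positive, and in 15 the libraries of the genotypes did not overlap in that direction (10.4% of all genes). Tyrobp, the adaptor on chromosome 7, 30113185 to 30117010, GRCm39, was at 8.84, 9.85 and 8.16 CPM in the wild-type and 40.2, 32.8 and 40.8 CPM in the 5xFAD libraries. Each 5xFAD library was thus above 3 times the highest wild-type library, and the rise was 2.08 ± 0.16 on the log2 scale (adjusted p = 2.31e-05). Trem2 (chromosome 17, 48653429 to 48661175, GRCm39) was at 15.8, 14.1 and 10.99 CPM in the wild-type and 54.7, 45.8 and 66.3 CPM in the 5xFAD libraries, a rise of 2.02 ± 0.16, again with no overlap. Fcer1g, the adaptor that Fc receptors share, rose by 1.51 ± 0.16, from 4.91 to 7.42 CPM in wild-type to between 15.2 and 20.1 CPM in 5xFAD libraries. Downstream, the phosphatase gene Ptpn6 rose by 1.33 ± 0.17 and the lipid phosphatase gene Inpp5d, a brake on the same pathway, by 0.67 ± 0.12, from 12.4 to 16.1 CPM in wild-type to between 20.1 and 24.6 CPM in 5xFAD libraries. The Src family kinase gene Lyn was at 7.79, 9.61 and 12.8 CPM in the wild-type and 11.4, 12.2 and 13.4 CPM in the 5xFAD libraries and did not pass (0.30 ± 0.18, adjusted p = 0.452). Syk, named after its values were seen because it is the kinase of the pathway, was at 4.83, 4.62 and 4.22 CPM in the wild-type and 6.55, 6.96 and 6.56 CPM in the 5xFAD libraries and did not pass either (0.55 ± 0.15, adjusted p = 0.0685). Inpp5d missed the threshold with 5xFAD library 1 left out (adjusted p = 0.0612). In the list, the 8 passing genes became 5 with 5xFAD library 1 left out.

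The lectin and paired receptors had 6 of 18 tested genes rising (against 1.06% of all genes) and none falling (of 22 listed, median 0.62). Many of them signal through these adaptors or oppose them. Clec7a, the beta-glucan receptor Dectin-1, was at 0.581, 0.122 and 0.346 CPM in the wild-type and 12.7, 10.6 and 13.5 CPM in the 5xFAD libraries. It was nearly absent from wild-type brain and present in each 5xFAD library, a fitted difference of 5.09 ± 0.33 that is given as a description, since the filter was passed with the help of the amyloid-carrying libraries. Cd84, a self-binding receptor of the SLAM family, was at 4.48, 3.10 and 3.73 CPM in the wild-type and 8.80, 7.91 and 10.9 CPM in the 5xFAD libraries (rise of 1.28 ± 0.18), and the inhibitory collagen receptor gene Lair1 at 8.95, 9.91 and 8.23 CPM in the wild-type and 16.1, 12.6 and 16.3 CPM in the 5xFAD libraries (rise of 0.73 ± 0.13). Siglech, a sialic acid receptor listed as a marker of microglia, rose by 0.66 ± 0.14, from 13.1 to 16.7 CPM in wild-type to between 19.9 and 27.5 CPM in 5xFAD libraries. Lair1 missed the threshold with 5xFAD library 1 left out (adjusted p = 0.0693). Siglech missed the threshold with wild-type library 1 or 3 or 5xFAD library 2 or 3 left out (adjusted p = 0.064 to 0.0884). From 6 passing genes, the list went to 3 with 5xFAD library 1 left out.

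Phagocytic and Fc receptors were split. Of 21 tested genes (of 24 listed), 7 rose (against 1.06% of all genes) and none fell. The median of the list was 0.11 and 7 fold changes were negative. Cd68, a glycoprotein of late endosomes in phagocytes, was at 6.86, 5.35 and 5.12 CPM in the wild-type and 27.7, 19.2 and 34.3 CPM in the 5xFAD libraries, a rise of 2.22 ± 0.20 (adjusted p = 5.43e-05). Fcgr3, an activating receptor for antibody, was at 10.46, 11.9 and 10.51 CPM in the wild-type and 26.7, 25.7 and 27.2 CPM in the 5xFAD libraries and varied little within either group. The inhibitory Fcgr2b rose by 1.89 ± 0.17, from 3.28 to 3.84 CPM in wild-type to between 10.1 and 14.4 CPM in 5xFAD libraries, and the high-affinity Fcgr1 by 1.14 ± 0.18. The Fc receptor genes are close paralogs, and how reads matching several of them were assigned is not given in the sources used here. Itgb5, part of the vitronectin receptor that takes up apoptotic cells, was at 59.2, 56.1 and 61.3 CPM in the wild-type and 101, 89.9 and 100.5 CPM in the 5xFAD libraries, and Havcr2, the receptor TIM-3 whose promoter window is shown above, at 1.92, 2.92 and 2.35 CPM in the wild-type and 6.42, 6.73 and 6.56 CPM in the 5xFAD libraries (rise of 1.45 ± 0.21). Cd14, the co-receptor for lipopolysaccharide, rose by 1.36 ± 0.24. All 7 passed in each of the 9 fits with 1 library left out.

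Toll-like receptors and their partners rose in 6 of 18 tested genes (of 20 listed, against 1.06% of all genes), with a median of 0.76. Ly86, the secreted partner of the receptor RP105, was at 6.92, 7.84 and 9.06 CPM in the wild-type and 26.7, 19.5 and 25.8 CPM in the 5xFAD libraries, a rise of 1.60 ± 0.15 (adjusted p = 9.87e-05). Tlr2, a receptor for lipoproteins, was at 2.33, 1.03 and 1.87 CPM in the wild-type and 4.83, 5.28 and 5.75 CPM in the 5xFAD libraries and rose by 1.60 ± 0.28. Of the endosomal receptors, Tlr13 rose by 1.44 ± 0.24 and Tlr7 by 1.10 ± 0.21, as did Unc93b1, which carries them to endosomes, by 0.64 ± 0.13 from 10.51 to 13.2 CPM in wild-type to between 16.7 and 22.1 CPM in 5xFAD libraries. Tlr7 missed the threshold with wild-type library 2 or 5xFAD library 1 left out (adjusted p = 0.0517 to 0.0751). Unc93b1 missed the threshold with wild-type library 2 or 3 or 5xFAD library 1 or 3 left out (adjusted p = 0.0511 to 0.086). The count of 6 in the list became 3 with wild-type library 2 left out.

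Genes that mark resting microglia rose with the rest. Of the 23 tested sensors and homeostatic genes (of 24 listed), 14 rose (against 1.06% of all genes) and none fell. All 23 fold changes were positive, with a median of 0.60. Csf1r, the receptor that microglia need to survive, was at 76.3, 85.7 and 69.6 CPM in the wild-type and 134, 133 and 149.8 CPM in the 5xFAD libraries, a rise of 0.84 ± 0.09 (adjusted p = 0.000196) with no overlap. The fractalkine receptor gene Cx3cr1, which is known to fall in plaque-associated microglia, was at 47.1, 60.6 and 46.3 CPM in the wild-type and 74.1, 63.6 and 96.5 CPM in the 5xFAD libraries, a rise of 0.60 ± 0.14. P2ry12 and Tmem119, chosen after their values were seen as further markers of the resting state, had log2 differences of 0.51 ± 0.12 (adjusted p = 0.0305) and 0.55 ± 0.11 (adjusted p = 0.0135), and P2ry12 was at 25.1, 30.2 and 29.9 CPM in the wild-type and 37.8, 37.3 and 45.8 CPM in the 5xFAD libraries. Larger rises were those of Fcrls (1.54 ± 0.14), of Olfml3, a secreted protein (1.25 ± 0.13), and of C3ar1, the receptor for complement C3a, at 2.27, 1.89 and 2.70 CPM in the wild-type and 8.60, 5.11 and 9.44 CPM in the 5xFAD libraries (1.75 ± 0.25). Gpr34, a lysophosphatidylserine receptor, went from 12.6 to 14.9 CPM in wild-type to between 25.02 and 29.5 CPM in 5xFAD libraries. Cx3cr1 missed the threshold with wild-type library 1 or 3 or 5xFAD library 1 or 3 or library 3 of 5xFAD/Cd5l tg/wt left out (adjusted p = 0.0604 to 0.136), and also in a fit to 6 libraries alone (0.0501), with the replicate block (0.0627) and with the 3 libraries apart in regional markers left out (0.0585). P2ry12 missed the threshold with wild-type library 1 or 2 or 5xFAD library 1, 2 or 3 left out (adjusted p = 0.056 to 0.115). Tmem119 missed the threshold with wild-type library 1 or 5xFAD library 1 or 3 left out (adjusted p = 0.053 to 0.0852). In the list, the 14 passing genes became 8 with 5xFAD library 1 left out and 9 with 5xFAD library 3 left out.

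Of 24 tested myeloid factors (of 25 listed), 2 rose (8.33%, against 1.06% of all genes) and none fell, with a median of 0.13. Irf8, a factor of macrophage identity (chromosome 8, 121463097 to 121483433, GRCm39), was at 5.35, 5.23 and 5.95 CPM in the wild-type and 15.2, 12.5 and 15.7 CPM in the 5xFAD libraries, a rise of 1.39 ± 0.13 (adjusted p = 9.87e-05) with no overlap. Cebpa, a factor of myeloid differentiation, was at 14.4, 9.97 and 9.40 CPM in the wild-type and 22.8, 23.7 and 23.1 CPM in the 5xFAD libraries, a rise of 1.04 ± 0.16. Spi1, the gene of PU.1, was at 4.24, 3.65 and 3.46 CPM in the wild-type and 4.70, 7.63 and 7.03 CPM in the 5xFAD libraries, a difference of 0.77 ± 0.21 that did not pass (adjusted p = 0.0738). Spi1 passed without the filter on counts (0.0137) and with DESeq2 (0.0315). Among the 498 tested genes that the deposited table names as zinc fingers of the C2H2 class, none rose and 10 fell (2.01%, against 2.44% of all genes). From 2 passing genes, the list went to 4 with library 1 of 5xFAD/Cd5l tg/wt left out.

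**Figure D3:**
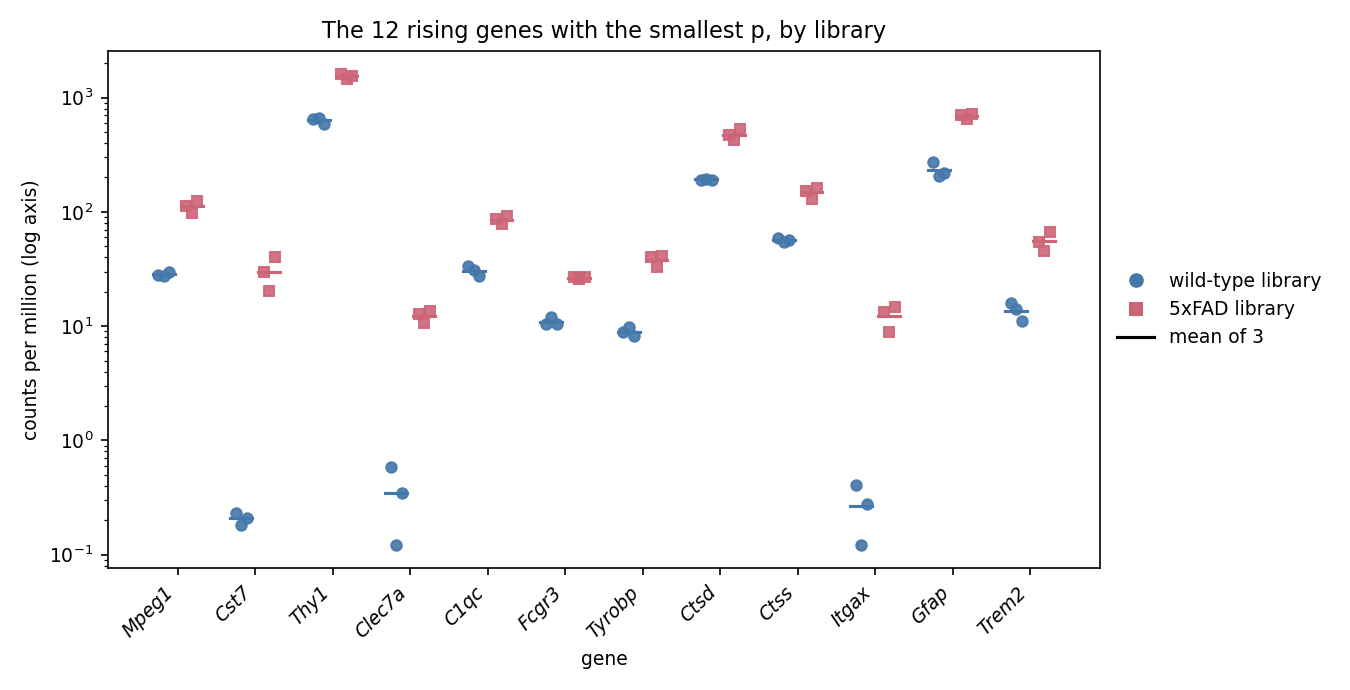
CPM (log axis) of the 12 rising genes with the smallest p in each wild-type (circles) and 5xFAD (squares) library, with the mean of each group as a line. The 12 were chosen among genes without overlap, so the 3 squares lie above the 3 circles by choice. Cst7, Clec7a and Itgax are under 1 in each wild-type library.

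Integrins, adhesion molecules and the actin machinery behind them rose in 11 of 26 tested genes (of 26 listed, against 1.06% of all genes). The median was 0.54. Itgax, the integrin chain CD11c, was at 0.407, 0.122 and 0.277 CPM in the wild-type and 13.3, 8.87 and 14.8 CPM in the 5xFAD libraries, so that it was under 1 CPM in wild-type brain, with a fitted difference of 5.47 ± 0.43, again a description. Its partner chain gene Itgb2 was at 6.16, 5.41 and 5.67 CPM in the wild-type and 16.02, 14.5 and 17.6 CPM in the 5xFAD libraries and rose by 1.48 ± 0.13. Cd52, a small surface glycoprotein, was at 1.92, 1.64 and 1.18 CPM in the wild-type and 7.81, 5.44 and 6.49 CPM in the 5xFAD libraries, and the tetraspanin genes Cd9 and Cd53 rose by 0.83 ± 0.10 and 1.02 ± 0.15, the latter from 5.35 to 6.64 CPM in wild-type to between 11.1 and 13.5 CPM in 5xFAD libraries. Arpc1b, a subunit of the complex that branches actin filaments, rose by 0.69 ± 0.11, from 14.9 to 17.9 CPM in wild-type to between 26.2 and 26.9 CPM in 5xFAD libraries. The actin-binding genes Cotl1 and Coro1a did not pass (0.32 ± 0.12, adjusted p = 0.188 and 0.17 ± 0.08, adjusted p = 0.343). Cotl1 passed without the filter on counts (0.0193) and with library 1 of 5xFAD/Cd5l tg/wt left out (0.0347). Leaving out 1 library at a time gave 8 to 12 of the 26.

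Cathepsins and their inhibitors held the largest rise. Of 17 tested genes (of 20 listed), 10 rose (against 1.06% of all genes) and none fell. Cst7, the inhibitor cystatin F, was at 0.233, 0.182 and 0.207 CPM in the wild-type and 29.5, 20.2 and 39.9 CPM in the 5xFAD libraries. It was barely detected in wild-type brain, and the fitted difference of 7.11 ± 0.36 is a description. Of the 10 rising genes, Cst7 and Ctse passed the filter with the help of the amyloid-carrying libraries. Ctsd, an aspartic protease of lysosomes (chromosome 7, 141929648 to 141941775, GRCm39), was at 191, 195 and 191 CPM in the wild-type and 469.8, 424 and 529 CPM in the 5xFAD libraries, and the wild-type libraries lay within a few CPM of each other. Ctss, the cysteine protease of antigen-presenting cells whose promoter is shown above, was at 59.1, 54.2 and 56.5 CPM in the wild-type and 153, 129 and 162 CPM in the 5xFAD libraries, a rise of 1.39 ± 0.11. Ctsz rose by 1.30 ± 0.14, from 29.9 to 42.6 CPM in wild-type to between 73.8 and 98.98 CPM in 5xFAD libraries. Ctsb, also made by neurons and astrocytes, was at 645, 637 and 637 CPM in the wild-type and 812, 773 and 816 CPM in the 5xFAD libraries, and its rise was small, 0.32 ± 0.07, but without overlap. Ctse had no count in any wild-type library and 11, 8 and 21 counts in the 5xFAD libraries, and was at least 13.8-fold higher when the wild-type group as a whole is set to 3 counts (counting error only). The median of the list was 0.41, with Ctse at its fitted value or at that bound. Per kilobase of model, Cst3, the secreted cystatin C, stood at 649.6 CPM per kilobase in wild-type and 890.1 in 5xFAD libraries, Ctsd at 81.8 CPM per kilobase in wild-type and 202 in 5xFAD libraries and Cst7 at 0.210 CPM per kilobase in wild-type and 30.3 in 5xFAD libraries. Ctsb missed the threshold with wild-type library 1 or 2 or 5xFAD library 1, 2 or 3 left out (adjusted p = 0.052 to 0.0956). Cst3 missed the threshold with wild-type library 2 or 3 or 5xFAD library 1, 2 or 3 left out (adjusted p = 0.0621 to 0.101). The count of 10 in the list became 4 with 5xFAD library 1 left out, 5 with wild-type library 2 left out and 6 with wild-type library 1 or 5xFAD library 3 left out.

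Other lysosomal genes rose too. Of 31 tested enzymes and membrane proteins (of 32 listed), 8 rose (against 1.06% of all genes) and none fell, with a median of 0.17. Lyz2, the lysozyme of macrophages, was at 10.8, 9.12 and 9.82 CPM in the wild-type and 39.8, 33.95 and 48.2 CPM in the 5xFAD libraries, a rise of 2.03 ± 0.18. Laptm5, a lysosomal membrane protein of blood cells, rose by 1.31 ± 0.11, from 29.1 to 34.1 CPM in wild-type to between 69.1 and 90.3 CPM in 5xFAD libraries, and the hexosaminidase subunit gene Hexa by 0.83 ± 0.07, from 46.6 to 49.01 CPM in wild-type to between 81.4 and 87.6 CPM in 5xFAD libraries. Grn, the gene of progranulin, was at 51.7, 55.5 and 48.9 CPM in the wild-type and 94.5, 87.99 and 107 CPM in the 5xFAD libraries, a rise of 0.89 ± 0.10, and Npc2, which hands cholesterol out of the lysosome, rose by 0.45 ± 0.08. Gpnmb, a glycoprotein of lysosomes in lipid-laden macrophages, was named after its values were seen. It was at 4.83, 2.62 and 4.70 CPM in the wild-type and 14.3, 8.19 and 16.3 CPM in the 5xFAD libraries and did not pass (1.67 ± 0.45, adjusted p = 0.0688), with 5xFAD library 2 below the other 5xFAD libraries. Gpnmb passed without the filter on counts (3.03e-18), in a fit to 6 libraries alone (0.00871), with the replicate block (0.0123), with library 1 of 5xFAD/Cd5l tg/wt left out (0.0034), with library 2 of 5xFAD/Cd5l tg/wt left out (0.0459) and with the 3 libraries apart in regional markers left out (0.00485).

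Among the 30 tested genes of lipid and lipoprotein handling (of 30 listed), 5 rose (against 1.06% of all genes) and none fell. The median was 0.24. Lgals3bp, a secreted binding partner of galectins, was at 24.6, 15.5 and 21.4 CPM in the wild-type and 43.4, 35.4 and 55.5 CPM in the 5xFAD libraries, a rise of 1.12 ± 0.18. Lpl, lipoprotein lipase, was at 27.03, 31.7 and 21.9 CPM in the wild-type and 43.02, 37.5 and 51.3 CPM in the 5xFAD libraries and rose by 0.70 ± 0.15 (adjusted p = 0.0245), and Tbxas1, thromboxane synthase, rose by 1.26 ± 0.23, from 1.80 to 2.42 CPM in wild-type to between 3.82 and 6.09 CPM in 5xFAD libraries. Apoe, the main apolipoprotein of the brain and mostly made by astrocytes, was at 1439, 1369 and 1157 CPM in the wild-type and 1601, 1696 and 1760.0 CPM in the 5xFAD libraries. Its 5xFAD libraries were all above the wild-type libraries, but the difference of 0.35 ± 0.11 did not pass (adjusted p = 0.133). Apoe passed without the filter on counts (3.19e-05), in a fit to 6 libraries alone (0.035), with library 1 of 5xFAD/Cd5l tg/wt left out (0.0299) and with the 3 libraries apart in regional markers left out (0.0074). Lpl missed the threshold with wild-type library 1 or 3 or 5xFAD library 1 or 3 left out (adjusted p = 0.0647 to 0.101). Tbxas1 missed the threshold with 5xFAD library 1 left out (adjusted p = 0.0512). In the list, the 5 passing genes became 1 with 5xFAD library 1 left out, 2 with wild-type library 1 or 3 or 5xFAD library 3 left out and 3 with 5xFAD library 2 left out.

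Secreted signals were led by chemokines of the CC class. Of 30 listed chemokines, cytokines and growth factors, 20 were tested, 5 rose (against 1.06% of all genes) and none fell. The median was 0.28. Ccl6 was at 0.814, 1.34 and 0.968 CPM in the wild-type and 11.7, 9.37 and 15.6 CPM in the 5xFAD libraries, a rise of 3.54 ± 0.29 (adjusted p = 3.66e-05), and Ccl3, a ligand of CCR1, at 0.116, 0.182 and 0.0691 CPM in the wild-type and 3.44, 2.81 and 4.82 CPM in the 5xFAD libraries, a fitted difference of 4.80 ± 0.41 given as a description. Both were near 1 CPM or below in wild-type brain, with no overlap. Ccl9, a neighbour of Ccl6 on chromosome 11, rose by 1.31 ± 0.23, from 1.09 to 1.34 CPM in wild-type to between 2.71 and 3.21 CPM in 5xFAD libraries. Among 23 tested receptors for such signals (of 25 listed), 4 rose (against 1.06% of all genes) and none fell. Tgfbr2, the ligand-binding receptor for TGF-beta, was at 19.3, 19.8 and 21.6 CPM in the wild-type and 32.5, 31.99 and 38.5 CPM in the 5xFAD libraries, a rise of 0.76 ± 0.11. Of 13 inflammasome genes tested, Naip2 alone passed, beside 1.06% of all genes that rose. It was at 1.05, 1.34 and 1.25 CPM in the wild-type and 4.10, 2.97 and 3.81 CPM in the 5xFAD libraries, and it belongs to a family of near-identical copies that can share reads. Ccl9 missed the threshold with 5xFAD library 2 left out (adjusted p = 0.0507). Naip2 missed the threshold with wild-type library 1 or 2 or 5xFAD library 1 or 3 left out (adjusted p = 0.0517 to 0.0842). From 5 passing genes, the list of secreted signals went to 3 with wild-type library 2 or 5xFAD library 2 or 3 left out. The count of 4 in the receptor list became 1 with wild-type library 1, 2 or 3 or 5xFAD library 1 or 3 left out and 2 with 5xFAD library 2 or library 3 of 5xFAD/Cd5l tg/wt left out.

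Complement genes rose in 6 of 20 tested cases (of 24 listed, against 1.06% of all genes), with a median of 0.27. The subunits of C1q, which starts the classical pathway and tags synapses for removal, lie side by side on chromosome 4 and moved together: C1qa rose by 1.38 ± 0.12, C1qb by 1.38 ± 0.11 and C1qc by 1.48 ± 0.10. C1qc (chromosome 4, 136617115 to 136620376, GRCm39) was at 33.4, 31.01 and 27.6 CPM in the wild-type and 87.1, 78.1 and 91.3 CPM in the 5xFAD libraries. C4b, the next component and largely astrocytic in brain, was at 61.9, 39.9 and 42.5 CPM in the wild-type and 102, 92.7 and 112 CPM in the 5xFAD libraries, a rise of 1.09 ± 0.20 (adjusted p = 0.0106), and its paralog C4a may share reads with it. C4b missed the threshold with 5xFAD library 1 left out (adjusted p = 0.0512).

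Antigen presentation rose in part. B2m, the invariant light chain of class I molecules, was at 83.95, 75.5 and 85.7 CPM in the wild-type and 139.7, 128 and 164 CPM in the 5xFAD libraries, a rise of 0.82 ± 0.12 (adjusted p = 0.00194). With the proteasome subunit gene Psmb9 (1.15 ± 0.29) it made up the 2 rising genes of 18 tested in the class I list (median 0.26). Over all genes 1.06% rose. Of the class II list, 4 of 13 tested genes rose (against 1.06% of all genes, median of the list 0.95). Cd74, the invariant chain, was at 5.46, 5.29 and 5.74 CPM in the wild-type and 25.2, 13.02 and 14.5 CPM in the 5xFAD libraries, and H2-Aa, the alpha chain of the A molecule, at 1.40, 1.58 and 2.35 CPM in the wild-type and 7.88, 4.38 and 4.28 CPM in the 5xFAD libraries. In both, 5xFAD library 1 was the highest, and the wild-type libraries lay below all 5xFAD libraries. The rises were 1.67 ± 0.23 and 1.64 ± 0.33. The MHC genes are polymorphic and close in sequence, so that reads may be shared. Of 31 tested interferon response genes 1 rose, Bst2, which tethers budding viruses to the cell, at 5.46, 2.86 and 3.32 CPM in the wild-type and 9.07, 6.51 and 9.64 CPM in the 5xFAD libraries. The share of 3.23% stands beside 1.06% over all genes. Psmb9 missed the threshold with wild-type library 1, 2 or 3 or 5xFAD library 1, 2 or 3 or library 3 of 5xFAD/Cd5l tg/wt left out (adjusted p = 0.0561 to 0.228), and also with upper-quartile scaling (0.051), with total-count scaling (0.0516), with limma-voom (0.0867) and with the replicate block (0.0675). H2-Aa missed the threshold with wild-type library 1 or 2 or 5xFAD library 1 left out (adjusted p = 0.0671 to 0.0933). Bst2 missed the threshold with wild-type library 2 or 3 or 5xFAD library 1, 2 or 3 left out (adjusted p = 0.0502 to 0.146). In the class II list, the 4 passing genes became 1 with wild-type library 2 or 5xFAD library 1 left out and 2 with wild-type library 1 or 5xFAD library 2 left out.

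None of 20 tested cell cycle genes passed in edgeR's test (median 0.19), with 3 at an unadjusted p under 0.05 and none by DESeq2 or limma-voom, and Top2a and Mki67, both of dividing cells, had log2 differences of 1.05 ± 0.40 and 0.58 ± 0.29 (adjusted p = 0.202 and adjusted p = 0.369). The lists of border-associated macrophages (6 tested), lymphocytes (5 tested) and neutrophils and monocytes (3 tested) held no passing gene either, and 6, 18 and 14 of their genes were too low to be tested. Their counts at an unadjusted p under 0.05 were 1, 0 and 0, and DESeq2 and limma-voom called none. Without the filter on low counts 1, 0 and 0 of their genes passed.

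Astrocytes and oligodendrocyte precursors showed a few changes. Among 24 tested genes of reactive astrocytes (of 27 listed), 5 rose (against 1.06% of all genes) and none fell (median 0.34). Gfap, the filament protein of astrocytes, was at 272, 205 and 218 CPM in the wild-type and 698, 650.4 and 714 CPM in the 5xFAD libraries, a rise of 1.57 ± 0.12 (adjusted p = 2.93e-05). Serpina3n, a secreted protease inhibitor with close paralogs, was at 18.1, 17.8 and 20.3 CPM in the wild-type and 52.7, 47.8 and 59.8 CPM in the 5xFAD libraries, with no overlap, and rose by 1.51 ± 0.21. The other 3 were C4b, Cd14 and Ctsb, given above, which other cells make too. None of 18 astrocyte identity genes passed (median 0.05), and the 5 summed astrocyte markers were at 1641 to 2060 CPM in wild-type and 1856 to 1958 CPM in 5xFAD. Of the identity genes, 3 had an unadjusted p under 0.05. DESeq2 called 1 of them and limma-voom none, 1 passed with wild-type library 3 or library 1 of 5xFAD/Cd5l tg/wt left out, and 5 passed with the 3 regionally distinct libraries removed. Gpr17, a receptor of precursors that are about to form myelin, was at 27.4, 34.9 and 39.97 CPM in the wild-type and 56.7, 59.8 and 55.4 CPM in the 5xFAD libraries. Each 5xFAD library was above each wild-type library, and the rise was 0.75 ± 0.11 (adjusted p = 0.00296). Gpr17 was the 1 rising gene of 16 in the precursor list, against 1.06% of all genes. In the myelin list none of 23 genes passed, although 20 fold changes were negative (median -0.12). In that list 1 gene had an unadjusted p under 0.05, and 1 passed by DESeq2, none by limma-voom. With library 2 of 5xFAD/Cd5l tg/wt left out 1 passed, as with the 3 libraries left out. Aspa, the enzyme that splits N-acetylaspartate in oligodendrocytes, was at 29.6, 26.4 and 30.5 CPM in the wild-type and 17.9, 20.6 and 22.1 CPM in the 5xFAD libraries and did not pass (-0.51 ± 0.14, adjusted p = 0.0687). Aspa passed without the filter on counts (0.00168), with DESeq2 (0.0243), in a fit to 6 libraries alone (0.0203), with library 2 of 5xFAD/Cd5l tg/wt left out (0.0227) and with the 3 libraries apart in regional markers left out (0.0206). From 5 passing genes, the list of reactive astrocytes went to 3 with 5xFAD library 1 left out and 8 with library 1 of 5xFAD/Cd5l tg/wt left out.

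**Figure D4:**
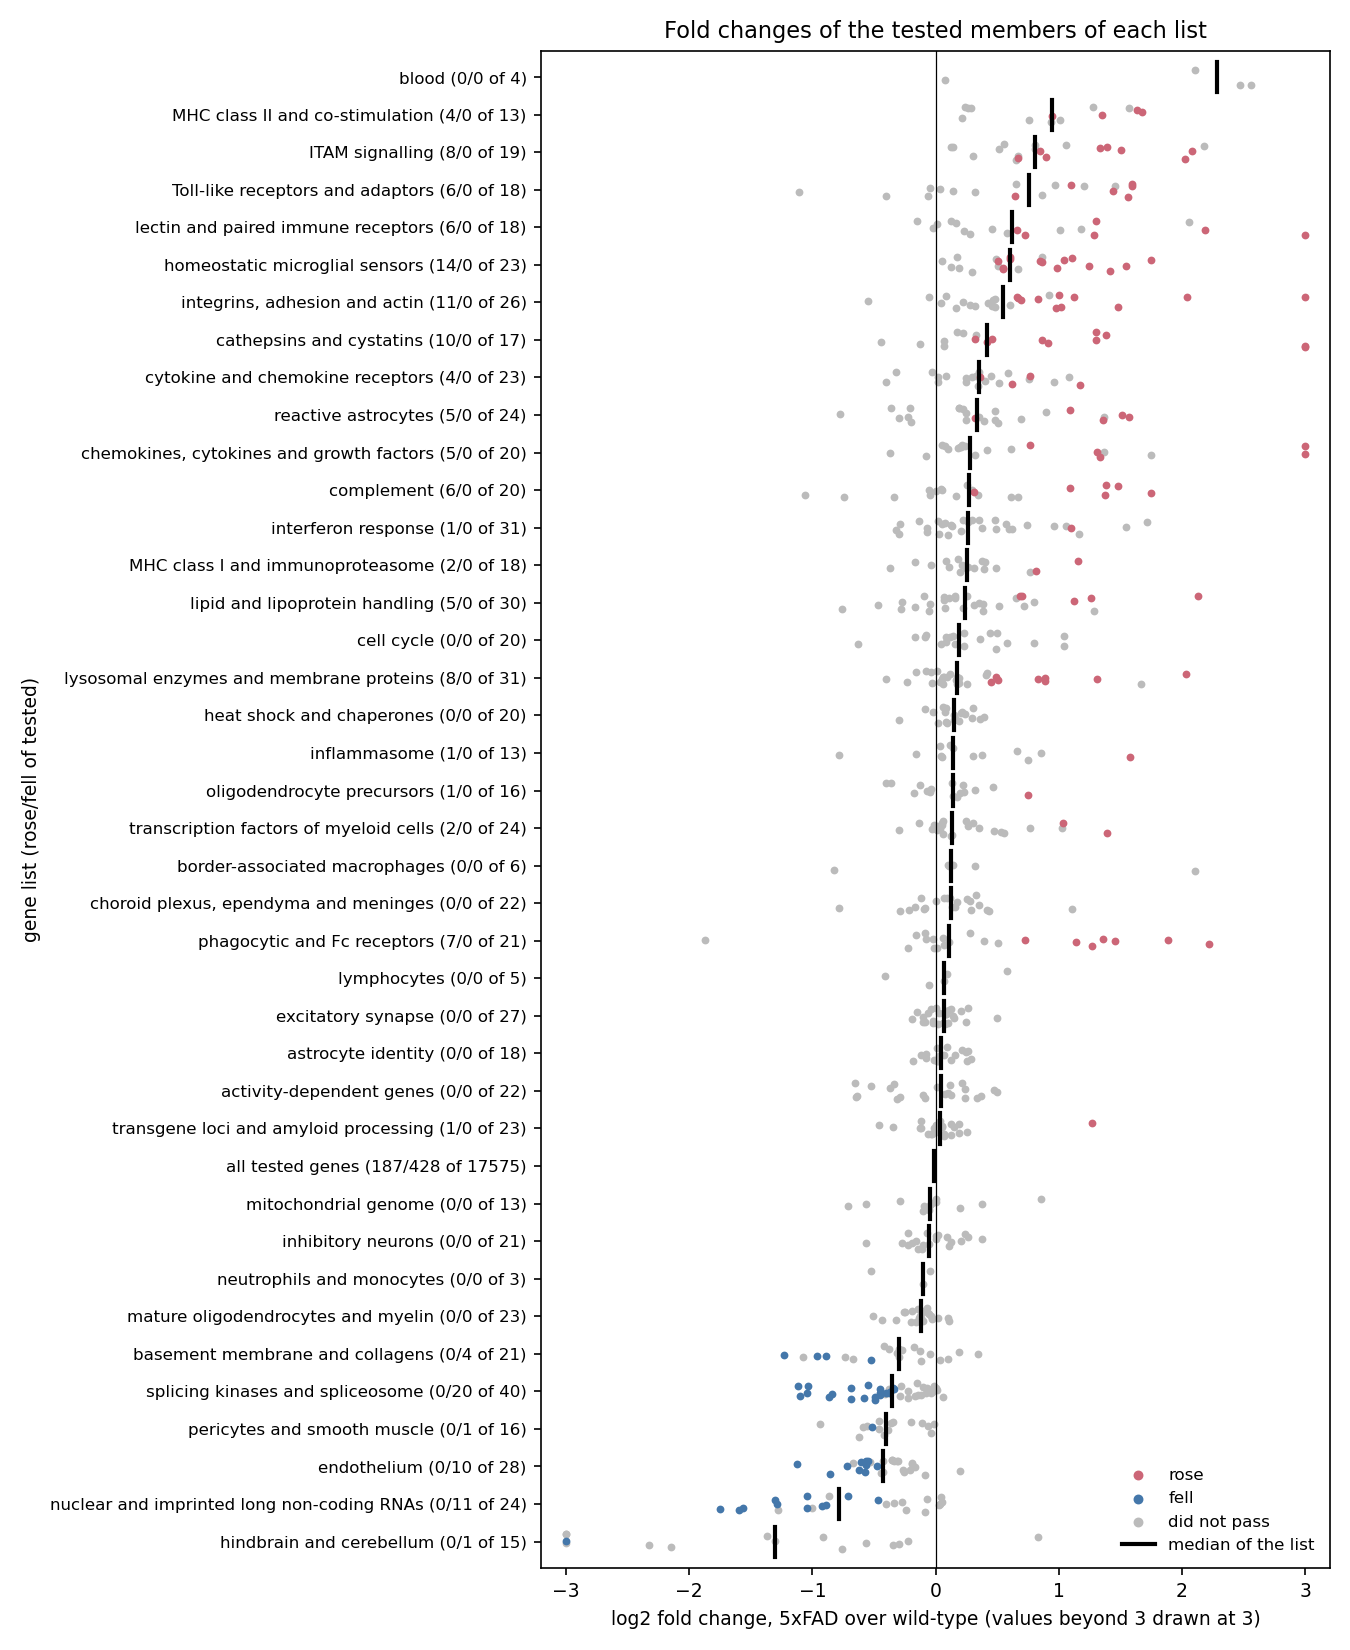
Log2 fold change of 5xFAD over wild-type for each tested member of 39 gene lists, 1 point a gene, coloured by whether it rose, fell or did not pass, with the median of each list as a black bar; the numbers after a name give rose/fell of tested, values beyond 3 are drawn at 3 and a bar with no points marks all 17575 genes. The medians of the microglial, lysosomal and antigen presentation lists lie to the right of 0, and those of the vessel, splicing and nuclear RNA lists to the left.

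In edgeR's test none of 27 excitatory synapse, 21 inhibitory neuron or 22 activity-dependent genes passed, and their medians of 0.07, -0.06 and 0.05 changed sign under some scalings or left-out libraries. The counts at an unadjusted p under 0.05 were 3, 3 and 0, and DESeq2 and limma-voom called none. These zeros changed under some alternatives. With the 3 regionally distinct libraries removed, 6 excitatory and 4 activity-dependent genes passed, and in a fit to the 6 libraries alone 1 and 2. With library 2 of 5xFAD/Cd5l tg/wt left out 1 excitatory gene passed. Of the activity-dependent genes, 1 passed with 5xFAD library 3 left out and 2 with library 1 of 5xFAD/Cd5l tg/wt left out. Without the filter on low counts 3 excitatory, 2 inhibitory and 12 activity-dependent genes passed. Snap25, a protein of vesicle release and the most general neuronal gene named here, was at 2468, 2465 and 2361 CPM in the wild-type and 2398, 2305 and 2189 CPM in the 5xFAD libraries (-0.08 ± 0.08). The sum of 6 neuronal markers was 5751 to 6112 CPM in wild-type and 5618 to 5914 CPM in 5xFAD libraries. Heat shock genes (20 tested) and the 13 protein genes of the mitochondrial genome held no passing gene either, with 3 and 0 at an unadjusted p under 0.05. DESeq2 called 1 and 0 and limma-voom none. Of the heat shock genes, 1 passed with library 1 of 5xFAD/Cd5l tg/wt left out and 4 without the 3 libraries, and without the filter on low counts 2 heat shock and 4 mitochondrial genes passed. At the mouse locus of the APP transgene, App was at 2130.0, 1960.0 and 1925 CPM in the wild-type and 1972, 1963 and 1945 CPM in the 5xFAD libraries, a difference of -0.03 ± 0.06 (adjusted p = 0.841). How reads from the human transgenes were treated is not given in the sources used here. Thy1, whose promoter drives the transgenes, was at 653, 662 and 590.4 CPM in the wild-type and 1599, 1444 and 1548 CPM in the 5xFAD libraries, a rise of 1.27 ± 0.08, and the counts do not separate the mouse gene from transgene transcripts that carry its sequence. It was the 1 gene of 23 in the list of transgene loci and amyloid processing that passed, beside 1.06% of all genes that rose.

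A share of the vessel genes fell. Of 28 tested endothelial genes, 10 fell (against 2.44% of all genes), none rose and 27 fold changes were negative (median -0.42). The libraries of the genotypes did not overlap in 22 of them, against 13.9% of all tested genes in that direction. Abcb1a, the drug efflux pump of the blood-brain barrier (chromosome 5, 8710077 to 8798575, GRCm39), was at 34.01, 35.9 and 35.8 CPM in the wild-type and 18.3, 20.8 and 19.3 CPM in the 5xFAD libraries. Both groups were tight, and it fell by 0.85 ± 0.08 on the log2 scale (adjusted p = 9.87e-05), with the reservation that its paralog Abcb1b may share reads. Slco1a4, an organic anion transporter of the same barrier, was at 50.3, 52.7 and 41.1 CPM in the wild-type and 19.5, 18.2 and 28.6 CPM in the 5xFAD libraries and fell by 1.12 ± 0.15. Flt1, a receptor for VEGF, was at 62.6, 66.4 and 65.5 CPM in the wild-type and 37.99, 46.8 and 46.8 CPM in the 5xFAD libraries and fell by 0.56 ± 0.10. Pltp, a phospholipid transfer protein, fell by 0.57 ± 0.10, from 70.2 to 88.7 CPM in wild-type to between 50.1 and 58.4 CPM in 5xFAD libraries, and Ly6c1, a surface protein of brain endothelium with close paralogs, by 0.62 ± 0.14. Slc2a1, the glucose transporter of the barrier, was at 103, 108 and 106 CPM in the wild-type and 102, 101 and 75.8 CPM in the 5xFAD libraries and did not pass (-0.19 ± 0.14, adjusted p = 0.56). The sum of the 5 endothelial markers was 125.2 to 137.4 CPM in wild-type and 84.18 to 109.4 CPM in 5xFAD libraries, with 1 of 5 falling past the threshold, and that of the 4 pericyte markers 113.6 to 123.6 and 83.19 to 89.41 CPM (exact permutation test, p = 0.1 for both, 0.3 adjusted over 24 tests). Flt1 alone held 62.6 to 66.4 CPM of the endothelial sum in wild-type libraries, and Rgs5 77.7 to 87.8 CPM of the pericyte sum. Of the other markers, Pecam1, Tek and Abcc9 were lower in 5xFAD without overlap. The groups overlapped in Cldn5, Cdh5, Pdgfrb and Kcnj8. The part of these sums in the falls was not tested. Flt1 missed the threshold with wild-type library 2 or 5xFAD library 1 left out (adjusted p = 0.0511 to 0.0612). Pltp missed the threshold with 5xFAD library 1 or 2 left out (adjusted p = 0.0639 to 0.0643). Ly6c1 missed the threshold with wild-type library 1 or 2 or 5xFAD library 1, 2 or 3 left out (adjusted p = 0.0595 to 0.12). The count of 10 in the list became 2 with 5xFAD library 1 left out, 3 with 5xFAD library 2 left out, 4 with wild-type library 2 left out, 5 with wild-type library 1 left out and 6 with 5xFAD library 3 left out.

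Single genes of pericytes and matrix fell as well. Rgs5, a G-protein regulator of pericytes, was at 77.7, 84.6 and 87.8 CPM in the wild-type and 57.05, 58.03 and 59.4 CPM in the 5xFAD libraries and fell by 0.52 ± 0.07 (adjusted p = 0.00168). It was the 1 passing gene of 16 in its list (2.44% of all genes fell), although all 16 fold changes were negative (median -0.40). Myh11, the myosin of smooth muscle, was at 6.34, 5.11 and 4.29 CPM in the wild-type and 2.38, 3.09 and 2.74 CPM in the 5xFAD libraries and did not pass (-0.94 ± 0.24, adjusted p = 0.0549). Myh11 passed without the filter on counts (0.00528), with DESeq2 (0.0211), in a fit to 6 libraries alone (0.0372), with wild-type library 3 left out (0.0498), with library 1 of 5xFAD/Cd5l tg/wt left out (0.0254), with library 3 of 5xFAD/Cd5l tg/wt left out (0.0493) and with the 3 libraries apart in regional markers left out (0.0134). Of 21 basement membrane and collagen genes, 4 fell (against 2.44% of all genes) and none rose (median -0.29). Col6a1, a chain of the beaded-filament collagen VI (chromosome 10, 76544626 to 76562002, GRCm39), was at 51.5, 46.5 and 42.5 CPM in the wild-type and 23.4, 20.8 and 27.97 CPM in the 5xFAD libraries and fell by 0.96 ± 0.11, with each 5xFAD library below each wild-type library. Col5a1, a chain of fibrillar collagen V, was at 18.1, 15.6 and 11.6 CPM in the wild-type and 6.09, 5.39 and 7.96 CPM in the 5xFAD libraries and fell by 1.23 ± 0.25, and the laminin chain gene Lama5 fell by 0.89 ± 0.19. Collagen IV, the core of the vascular basement membrane, was represented by Col4a2, which fell by 0.53 ± 0.13 (adjusted p = 0.0453). Col5a1 missed the threshold with wild-type library 1 or 2 or 5xFAD library 1 or 2 left out (adjusted p = 0.0556 to 0.0975). Lama5 missed the threshold with wild-type library 1 or 2 or 5xFAD library 1 or 2 left out (adjusted p = 0.0858 to 0.121). Col4a2 missed the threshold with wild-type library 1 or 2 or 5xFAD library 1 or 2 or library 2 or 3 of 5xFAD/Cd5l tg/wt left out (adjusted p = 0.0577 to 0.217), and also with upper-quartile scaling (0.0602), with a filter of at least 1 CPM in 3 libraries (0.0508), with limma-voom (0.0545), in a fit to 6 libraries alone (0.0525) and with the replicate block (0.0617). In the list, the 4 passing genes became 1 with wild-type library 1 or 2 or 5xFAD library 1 or 2 left out.

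**Figure D5:**
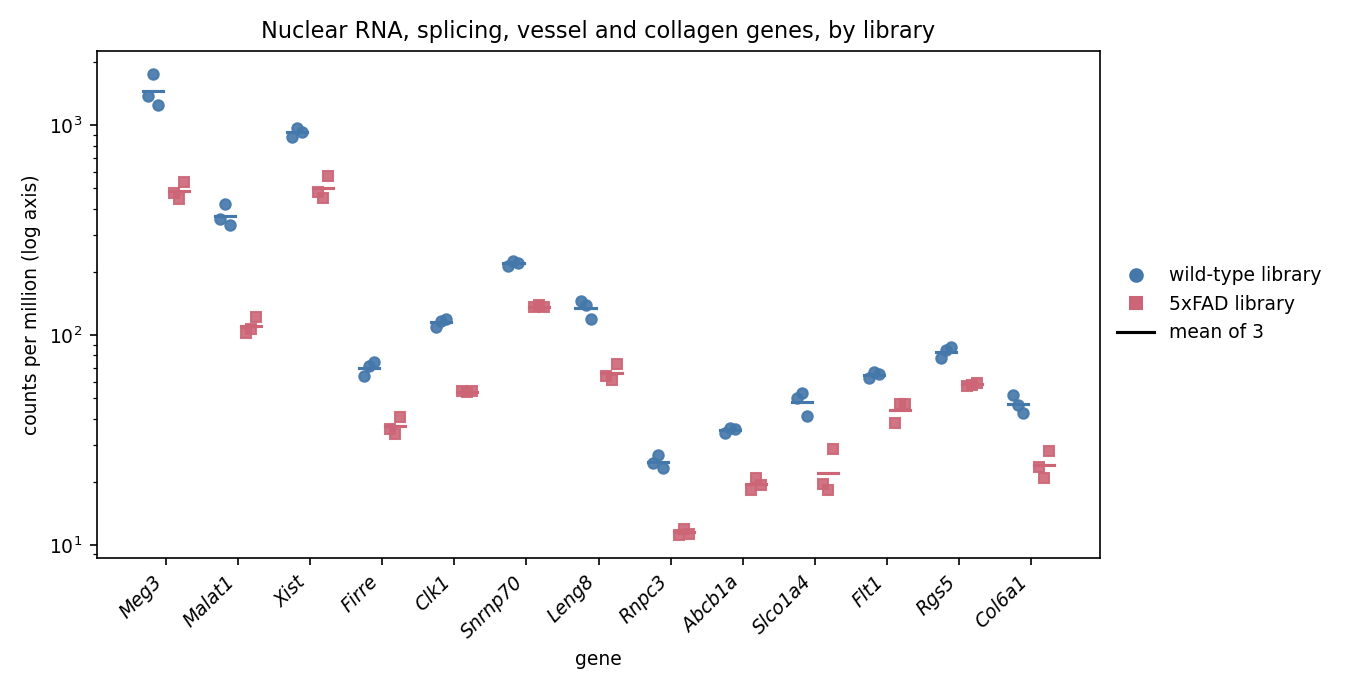
CPM (log axis) of 4 long non-coding RNAs, 4 splicing genes, 4 vessel genes and 1 collagen gene in each wild-type (circles) and 5xFAD (squares) library, with the mean of each group as a line. The 13 were picked from genes that fell, so the squares lie below the circles by choice. Norad, Rian, Slc2a1 and Ddx5, which did not pass, are not drawn.

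Nuclear RNAs fell as well. Of the 24 tested nuclear and imprinted long non-coding RNAs, 11 fell (against 2.44% of all genes) and none rose (median -0.79). Malat1, which sits in nuclear speckles (chromosome 19, 5845717 to 5852704, GRCm39), was at 358, 421 and 334 CPM in the wild-type and 103, 106 and 122 CPM in the 5xFAD libraries, and it fell by 1.75 ± 0.19 (adjusted p = 0.00028). Meg3, expressed from the maternal copy of an imprinted cluster on chromosome 12, was at 1384, 1758 and 1248 CPM in the wild-type and 474, 443 and 537 CPM in the 5xFAD libraries and fell by 1.59 ± 0.16, while Rian, from the same cluster, was at 518, 633 and 582 CPM in the wild-type and 475, 436 and 464 CPM in the 5xFAD libraries and did not pass (-0.33 ± 0.10, adjusted p = 0.117). Rian passed without the filter on counts (0.000809), in a fit to 6 libraries alone (0.0295), with library 1 of 5xFAD/Cd5l tg/wt left out (0.0207) and with the 3 libraries apart in regional markers left out (0.0173). Xist, which coats the inactive X chromosome, was at 880.3, 969.7 and 931 CPM in the wild-type and 479, 451 and 574 CPM in the 5xFAD libraries, so that it was abundant in all 6 libraries, and fell by 0.89 ± 0.09. Ftx, a neighbour of Xist, fell by 1.56 ± 0.20, from 32.1 to 44.1 CPM in wild-type to between 10.9 and 14.2 CPM in 5xFAD libraries, and Firre, an X-linked RNA, by 0.92 ± 0.09, from 63.6 to 74.1 CPM in wild-type to between 33.8 and 40.5 CPM in 5xFAD libraries. Snhg11, the host of a small nucleolar RNA, was at 911, 1181 and 848 CPM in the wild-type and 392, 358 and 442 CPM in the 5xFAD libraries and fell by 1.30 ± 0.17. Norad, a cytoplasmic long non-coding RNA of the list, was at 1236, 1389 and 1204 CPM in the wild-type and 1349, 1305 and 1309 CPM in the 5xFAD libraries and did not pass (0.05 ± 0.06, adjusted p = 0.771). Several of these RNAs overlap other genes on the opposite strand, and whether counting used the strand is not given in the sources used here. From 11 passing genes, the list went to 7 with 5xFAD library 1 or 2 left out.

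The same libraries also differed in the share of counts from long non-coding RNAs and TEC models. The former share includes the RNAs named above, of which Meg3 had means of 1463 CPM in wild-type and 484.5 CPM in 5xFAD libraries. Over the 1996 tested long non-coding RNAs the median log2 fold change was -0.09, beside -0.01 over all genes. Long non-coding RNAs took 1.351% to 1.531% of all counts in wild-type and 1.146% to 1.195% in 5xFAD libraries, and TEC models 0.0955% to 0.1081% and 0.08123% to 0.08167% (exact permutation test, p = 0.1 for both, 0.3 adjusted over 24 tests). Ribosomal RNA genes took 0.05841% to 0.2555% and 0.1845% to 0.2647%. In wild-type libraries 24260 to 25236 genes had a count, in 5xFAD libraries 23702 to 24047. The 315 tested TEC models had a median log2 fold change of -0.40. The part of these library differences in the falls of single genes was not tested.

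Genes of the splicing machinery fell in 20 of 40 tested cases, against 2.44% of all genes. None rose, and 37 fold changes were negative (median -0.36). Clk1, a kinase that releases SR proteins from speckles and is itself spliced from a retained intron, was at 109.7, 117 and 119 CPM in the wild-type and 53.9, 53.5 and 54.01 CPM in the 5xFAD libraries and fell by 1.10 ± 0.10 (adjusted p = 9.67e-05). The 5xFAD libraries were within 1 CPM of each other. Its paralog gene Clk4 was at 57.7, 63.8 and 57.4 CPM in the wild-type and 30.4, 26.7 and 29.9 CPM in the 5xFAD libraries and fell by 1.04 ± 0.13. Snrnp70, a protein bound to U1 RNA (chromosome 7, 45025877 to 45045166, GRCm39), was at 214, 224 and 221 CPM in the wild-type and 135, 139 and 136 CPM in the 5xFAD libraries and fell by 0.69 ± 0.07, and Rnpc3, of the minor spliceosome, was at 24.5, 26.9 and 23.3 CPM in the wild-type and 11.2, 11.9 and 11.3 CPM in the 5xFAD libraries and fell by 1.12 ± 0.11. Leng8, a member of the messenger RNA export machinery, fell by 1.03 ± 0.11, from 119 to 145 CPM in wild-type to between 60.95 and 72.6 CPM in 5xFAD libraries, and Pnisr, an SR-like protein, by 0.86 ± 0.11, from 164 to 196 CPM in wild-type to between 92.9 and 103 CPM in 5xFAD libraries. Smaller was the fall of the helicase gene Ddx17, 400.5, 438 and 500.3 CPM in the wild-type and 349, 344 and 343 CPM in the 5xFAD libraries, which fell by 0.37 ± 0.08. The close helicase gene Ddx5 was at 718, 804 and 846 CPM in the wild-type and 667, 664 and 692 CPM in the 5xFAD libraries and did not pass (-0.23 ± 0.07, adjusted p = 0.138). Ddx17 missed the threshold with wild-type library 2 or 5xFAD library 1, 2 or 3 left out (adjusted p = 0.0645 to 0.0911). The count of 20 in the list became 9 with 5xFAD library 1 or 2 left out and 11 with wild-type library 2 left out.

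Outside the lists, the falling genes with the smallest p included Atp11b, a phospholipid flippase, at 89.9, 96.6 and 92.4 CPM in the wild-type and 47.2, 49.95 and 54.4 CPM in the 5xFAD libraries, which fell by 0.88 ± 0.09, Tle2, a transcriptional co-repressor, which fell by 1.04 ± 0.11, and Wsb1, a ubiquitin ligase adaptor, which fell by 0.83 ± 0.09. Among those that rose, Mpeg1, perforin-2 of macrophages, had the smallest p of all tested genes (adjusted p = 8.38e-07). It was at 27.96, 27.4 and 29.9 CPM in the wild-type and 113, 98.2 and 124 CPM in the 5xFAD libraries, a rise of 1.98 ± 0.10. The hindbrain and cerebellum list had a median of -1.30, with 1 of 15 genes passing (2.44% of all genes fell). This gene, Cbln3, was at 18.5, 2.98 and 192 CPM in the wild-type and 0.728, 4.83 and 0.469 CPM in the 5xFAD libraries, and the groups overlapped. Wild-type library 3, which carried the cerebellar markers, held most of it. The count of 1 became 2 with wild-type library 1 left out, 9 with wild-type library 2 left out, 4 with library 1 of 5xFAD/Cd5l tg/wt left out and 0 in the other 6 such fits. The median went from -2.12 to -0.22 over these fits, and it was -0.22 with wild-type library 3 left out. Under the 12 alternatives other than leaving out 1 library, the count went from 0 to 15. Cbln3 missed the threshold with wild-type library 3 or 5xFAD library 1, 2 or 3 or library 2 or 3 of 5xFAD/Cd5l tg/wt left out (adjusted p = 0.0553 to 0.192), and also with limma-voom (0.459), in a fit to 6 libraries alone (0.0638), with the replicate block (0.123) and with the 3 libraries apart in regional markers left out (0.0806).

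In the 5xFAD/Cd5l tg/wt libraries, which share the amyloid transgenes, some of the genes described above had these values. C1qc was at 90.5, 76.6 and 94.3 CPM and Cst7 at 38.7, 28.9 and 31.2 CPM. Abcb1a was at 36.7, 36.2 and 36.1 CPM, Snrnp70 at 210.5, 245 and 253 CPM and Malat1 at 291, 557 and 534 CPM. Long non-coding RNAs took 1.388%, 1.597% and 1.652% of the counts there, and TEC models 0.09692%, 0.1146% and 0.1206%. The endothelial markers summed to 131.5, 154.2 and 171 CPM and the pericyte markers to 128, 132.6 and 123.7 CPM. The microglial markers summed to 625.2, 587.6 and 643 CPM. The 12 falling genes with the smallest p lay -0.08 (Tle2) to 0.42 (Meg3) from wild-type on the log2 scale, and none passed. All 12 were above 5xFAD past the threshold, by 0.79 (Snrnp70) to 2.01 (Meg3). The 12 rising genes with the smallest p stayed above wild-type, by 1.31 (Fcgr3) to 7.25 (Cst7), and none passed against 5xFAD. Why the falls were absent there was not tested. A comparison of that genotype with 5xFAD uses the same 5xFAD libraries, so that the differences are not independent of those described here.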

How the data were processed

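RNA of 9 mouse brains, 3 of each genotype, was sequenced, and the authors deposited 1 table of raw counts per gene. Per the submitters' processing notes, the build was GRCm39 (mm39). Aligner, counting program and strandedness are, in the sources used here, not stated. All 9 libraries were fitted together with edgeR 4.0.16 in R 4.3.3: genes were kept by filterByExpr (minimum count 10, minimum total 15), libraries were scaled by TMM, and 5xFAD was compared with wild-type by the quasi-likelihood F test with Benjamini-Hochberg adjustment (threshold 0.05). Errors after ± are standard errors of the log2 fold change. CPM are per 1e6 scaled counts. A gene that passed the filter only through the group where it is high had to differ. Library totals of 14575416 to 17865150 limit precision mainly for genes near 1 CPM.

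Members and gene lists (39 lists, 755 different genes tested of 854) were chosen with earlier results of these data known. Genes named are Thy1 and App, in each direction the 12 genes of smallest p (mean of at least 1 CPM, no overlap, no predicted-gene name), and of each list up to 6 members with the smallest p and up to 3 with the highest mean CPM. Others carry a remark, and some genes that this rule names are not reported here. Single values per library were compared by exact permutation tests, two-sided. The pipeline was tested on simulated data. DESeq2 1.42.0 and limma 3.58.1 served as alternatives, beside other scalings, filters and thresholds, a replicate block and the omission of each library. Promoter sequences are from RefSeq on GRCm38.p6, and no coordinate of that build is combined with a coordinate of the count table. The p-values of edgeR set each difference against the spread between libraries of the same genotype. That spread was estimated from all 9 libraries, with the 3 that stood apart in regional markers among them.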

Additional observations from a re-analysis of the deposited data

How the results depend on the processing

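The count of 615 changed genes (187 higher and 428 lower in 5xFAD) lay within 1.5 times under the 3 other scalings, the stricter filter, DESeq2, limma-voom and the fit of only 6 libraries. Without the filter on low counts it was 1354 (396 higher and 958 lower), at an adjusted p under 0.01 it was 197 (77 and 120), and at an adjusted p under 0.1 it was 958 (of which 681 lower). Leaving out 1 library at a time gave 206 to 850 changed genes, 84 to 242 higher and 122 to 608 lower. With the 3 libraries apart in regional markers left out (wild-type 3, and 2 and 3 of 5xFAD/Cd5l tg/wt), a choice made after seeing the data, 1158 passed (378 higher and 780 lower). The cause was not tested. DESeq2 also called 611 of the 615 genes and limma-voom 525. Deviations of libraries with the same number from their group means correlated between -0.1 and 0.154 and did not all exceed 0.1, so the numbers were not taken as a pairing, and not every library correlated best with its own number. With the number as a replicate block, 506 genes passed (163 higher and 343 lower). The difference of App ranged from -0.0602 to 0.016 with 1 library left out, and the sign turned with wild-type library 1 left out. Of 107 named genes that passed, 79 passed under each of the 19 alternatives other than thresholds. Genes of few counts are limited by depth, and small changes by 3 mice a group.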

Other observations

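All genes in the next paragraphs lie outside the lists of the report and were chosen after their values were seen, so that their values are a description. Cyba, the membrane subunit of the phagocyte NADPH oxidase, which makes superoxide, was at 7.15, 5.59 and 5.53 CPM in the wild-type and 13.2, 10.4 and 12.8 CPM in the 5xFAD libraries, a rise of 0.99 ± 0.17, and Ncf1, a cytosolic subunit, was at 7.56, 7.66 and 6.43 CPM in the wild-type and 16.4, 12.1 and 16.9 CPM in the 5xFAD libraries, a rise of 1.06 ± 0.21. The proton channel gene Hvcn1, which balances the charge that the oxidase moves, was at 5.06, 4.92 and 3.94 CPM in the wild-type and 9.79, 8.70 and 12.2 CPM in the 5xFAD libraries, a rise of 1.13 ± 0.17. Slc11a1, a metal transporter of phagosomes, rose by 2.07 ± 0.22, from 1.76 to 1.87 CPM in wild-type to between 6.12 and 9.77 CPM in 5xFAD libraries. Lag3, an inhibitory receptor best known from T cells, was at 7.62, 5.59 and 3.39 CPM in the wild-type and 15.1, 13.5 and 18.8 CPM in the 5xFAD libraries. Its groups did not overlap (adjusted p = 0.00283). The summed T cell markers were at 4.425 to 7.5 CPM in wild-type and 4.567 to 5.22 CPM in 5xFAD libraries. Nearly all of that sum was Trbc2, and Cd3d, Cd3e, Cd3g and Cd8a were at most at 0.182 CPM, so the sum is no measure of T cells. Which cells held Lag3 was not tested. Cyba missed the threshold with 5xFAD library 1 left out (adjusted p = 0.0512). Ncf1 missed the threshold with 5xFAD library 1 or 3 left out (adjusted p = 0.0601 to 0.0795).

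Of genes that fell, Flna, an actin cross-linking filamin, was at 71.3, 70.2 and 63.1 CPM in the wild-type and 42.03, 42.5 and 46.5 CPM in the 5xFAD libraries and fell by 0.64 ± 0.08. Each 5xFAD library was below each wild-type library. Ptprb, a phosphatase of endothelial junctions, fell by 0.77 ± 0.10, from 38.2 to 43.7 CPM in wild-type to between 21.7 and 25.8 CPM in 5xFAD libraries, and Adgrf5, an adhesion receptor of endothelium, fell by 0.75 ± 0.09. The chemokine gene Cxcl12 fell by 0.73 ± 0.11, from 52.97 to 64.3 CPM in wild-type to between 32.2 and 42.4 CPM in 5xFAD libraries. The clock gene Per3 was at 42.5, 54.9 and 41.8 CPM in the wild-type and 27.7, 29.6 and 23.8 CPM in the 5xFAD libraries and fell by 0.78 ± 0.13.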
